A study of Rattus norvegicus with 9 samples.

Results

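In rat brain, 6 genes of the fibrous extracellular matrix were followed: *Col1a1* (ENSRNOG00000003897), *Col1a2* (ENSRNOG00000011292), *Col3a1* (ENSRNOG00000003357), *Fn1* (ENSRNOG00000014288), *Dcn* (ENSRNOG00000004554) and *Lum* (ENSRNOG00000004610). They were chosen by Ensembl identifier, and are 6 of the 32623 genes in the count table. All 6 were abundant enough to be among the 15402 genes tested. The deposited table holds identifiers only, so the pairing with symbols comes from the list that defined the members and could not be checked against another table.

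*Col1a1* and *Col1a2* encode the alpha chains of type I collagen, and *Col3a1* encodes the chain of type III collagen. These collagens form the fibrils of connective tissue. *Fn1* encodes fibronectin, which circulates in plasma and is also laid down as matrix that cells bind through integrins. *Dcn* and *Lum* encode decorin and lumican, small leucine-rich proteoglycans that bind collagen fibrils and regulate their diameter and spacing. In brain, fibrillar collagens and these proteoglycans are known mainly from fibroblasts of the meninges and of the walls of larger vessels, and the nervous tissue itself holds little of them. After injury such cells can form a fibrotic scar.

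Expression was measured by RNA sequencing of poly(A)-selected RNA from brain tissue of rats given saline, rt-PA or Nano-patrol+NIR, with 3 libraries per group. Every animal, saline group included, was first put through a modelling step, which is left undescribed in the labels. The injection followed 4.5 h later, and tissue was taken 3 days after that. rt-PA is a recombinant tissue plasminogen activator, a drug that opens clots by activating plasminogen, but the count columns of that group are named uk, and which agent was given was not resolved. Nano-patrol+NIR is, by the title of the series, a thrombolysis treatment, with no further description in the labels. The sources used here give no strain, age, sex, brain region or hemisphere. No group without the modelling step, or with Nano-patrol or NIR alone, was analysed here.

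Library totals ran from 13059048 to 14992109 counts. In each group 1 library stood apart from the remaining pair across all tested genes: saline 1, rt-PA 3 and Nano-patrol+NIR 3. The alike pairs correlated across genes at r = 0.984 to 0.990, and the 3 other libraries with their own group at 0.896 to 0.944. Genes are not independent replicates, so these coefficients only describe the libraries. Marker lists for fibroblasts, vessel walls, choroid plexus and the main brain cell types could not be read, because 0 of their symbols were paired with an identifier in the reference gene table. The tissue label and the share of meninges in each sample were therefore not checked. In such bulk samples, fewer cells of a type and less RNA per cell cannot be told apart.

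Transcripts of both type I collagen chains were lower in all 3 rt-PA libraries than in the lowest saline library. The same order held for 10.3% of all tested genes. *Col1a1* stood at 126, 138 and 153 CPM (counts divided by the library's total, as TMM adjusts it, and put on a common scale) in saline 1, 2 and 3. In rt-PA 1, 2 and 3 it stood at 67.1, 16.8 and 91.1 CPM. In Nano-patrol+NIR 1, 2 and 3 it stood at 66.0, 48.1 and 148 CPM. Saline was high and narrow, rt-PA was low and wide, and Nano-patrol+NIR was low in 2 libraries and at the saline level in the third. The means were 139 ± 13.1 CPM in saline, 58.3 ± 37.9 in rt-PA and 87.3 ± 53.2 in Nano-patrol+NIR (SD, n = 3 each). The difference of rt-PA from saline was -1.25 on the log2 scale (SE 0.59, 95% interval -2.59 to 0.08), a mean 2.39-fold lower, with an edgeR adjusted p of 0.318. In the RefSeq assembly the *Col1a1* locus overlaps the neighbouring *Sgca*, and without a stated strand setting reads shared by these genes cannot be told apart.

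*Col1a2* had few counts, with 11 to 61 per library. In saline the counts of *Col1a1* were 42.0 times as many (geometric mean of 3 libraries). The counting step is not described, and the reason for this gap was not tested. It stood at 3.597, 2.31 and 4.34 CPM in saline 1, 2 and 3, and at 1.78, 0.838 and 1.81 CPM in rt-PA 1, 2 and 3. In Nano-patrol+NIR 1, 2 and 3 it stood at 2.16, 1.29 and 3.62 CPM. As for *Col1a1* and 10.3% of all tested genes, no rt-PA library reached the lowest saline library, while Nano-patrol+NIR overlapped both groups. The log2 difference of rt-PA from saline was -1.21 (SE 0.48, 95% interval -2.30 to -0.11), with an edgeR adjusted p of 0.254. Counting error alone was 12.8% to 30.2% of each library's value. At least the order of saline 1 and 3 (53 and 61 counts) and of rt-PA 1 and 3 (23 and 26 counts) was therefore not detectable.

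The type I chains are transcribed from separate chromosomes, and of the members only *Col1a2* and *Lum* are in the RefSeq promoter table used here (GRCr8). The stretch of the *Col1a2* promoter at chr4:33518307-33518416, on the plus strand, is shown because this gene and *Col1a1* were both lower in every rt-PA library. It runs from base -250 to base -141 before the annotated start, and capitals mark motif matches.
Col1a2: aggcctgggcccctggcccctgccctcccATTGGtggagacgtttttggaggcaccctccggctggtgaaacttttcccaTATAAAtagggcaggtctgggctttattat
The first match is CCAAT read on the opposite strand, at bases -221 to -217, and the second is TATAAA on the gene's strand, at bases -170 to -165. Over the 250 bases before the start, CCAAT occurs on either strand in 34% of 33469 promoters, TATAAA in 12.9% and GGGCGG in 30.5%. The *Col1a2* window holds no GGGCGG on either strand, and the *Lum* window holds CCAAT alone of these 3 motifs. The motifs do not overlap, and a match is a description of the letters, not a binding site.

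*Col3a1*, the type III chain, overlapped saline in rt-PA, unlike the type I chains. Like them, it was lowest in replicate 2 of both treated groups. It stood at 54.3, 48.1 and 54.9 CPM in saline 1, 2 and 3, at 90.3, 30.0 and 61.9 CPM in rt-PA 1, 2 and 3, and at 41.9, 27.2 and 99.3 CPM in Nano-patrol+NIR 1, 2 and 3. The saline libraries lay in the middle of both treated groups. The log2 difference from saline was 0.21 in rt-PA (SE 0.50, 95% interval -0.92 to 1.34, edgeR adjusted p = 0.856). In Nano-patrol+NIR it was 0.10 (SE 0.50, 95% interval -1.03 to 1.23, edgeR adjusted p = 1.00). These intervals include changes of more than 2-fold in either direction for Nano-patrol+NIR, and a rise of that size for rt-PA. Without rt-PA 1, the log2 difference of rt-PA from saline was -0.17, and without Nano-patrol+NIR 3 that of Nano-patrol+NIR was -0.60.

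**Figure D1:**
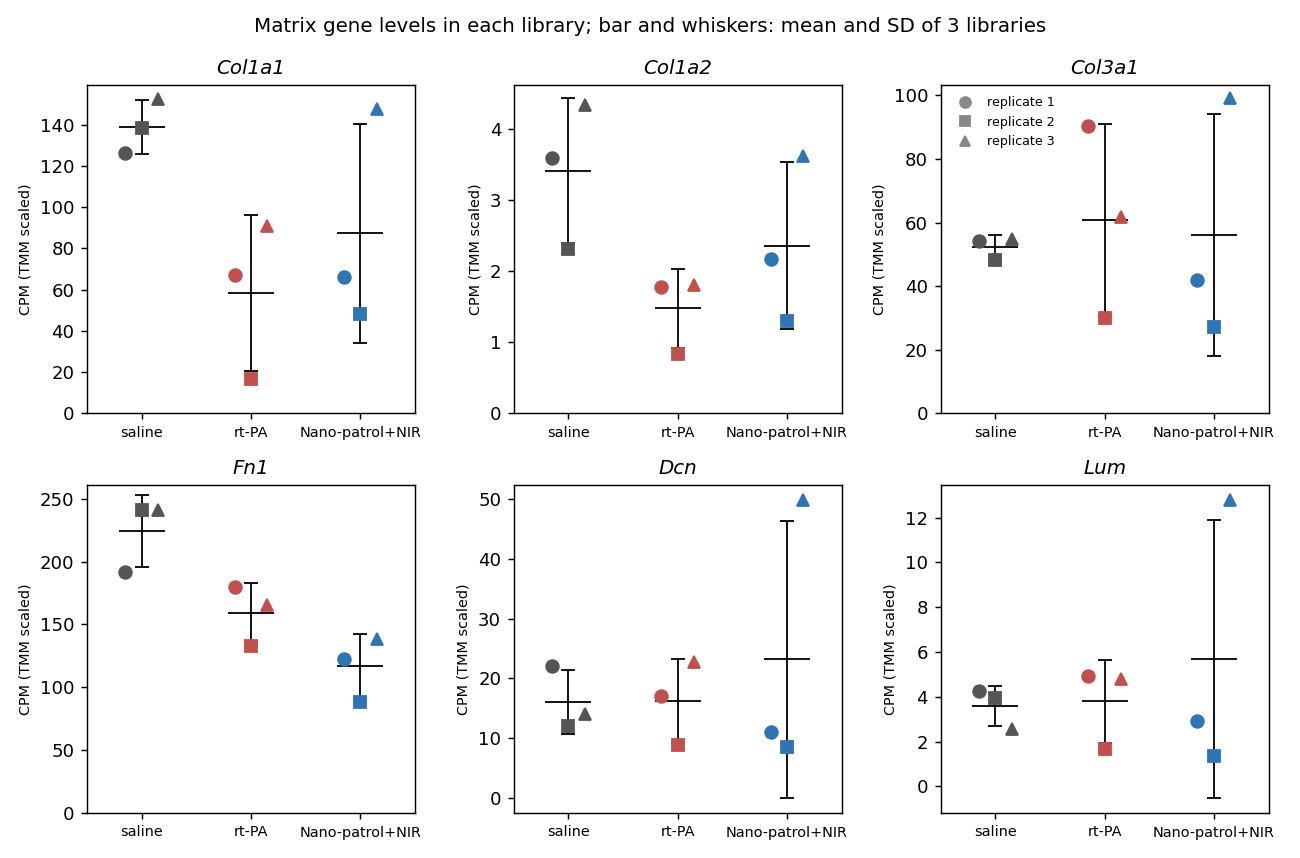
Level of each matrix gene in each library, in CPM with TMM scaling (vertical axis, linear), by treatment group; circles, squares and triangles are replicates 1, 2 and 3, and the bar and whiskers are the mean and SD of 3 libraries. Fn1 lies above both treated groups in all saline libraries, Col1a1 and Col1a2 lie above rt-PA, and Nano-patrol+NIR 3 is the highest library of its group in all 6 panels.

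*Fn1* showed the clearest separation of saline from the treated groups. Saline 1, 2 and 3 held 192, 241 and 241 CPM, rt-PA 1, 2 and 3 held 180, 133 and 165 CPM, and Nano-patrol+NIR 1, 2 and 3 held 123, 88.5 and 139 CPM. Every saline library was above all 6 treated libraries, as for 2.54% of tested genes. rt-PA and Nano-patrol+NIR overlapped only through rt-PA 2, which lay below Nano-patrol+NIR 3. The means were 224 ± 28.5 CPM in saline, 159 ± 23.8 in rt-PA and 117 ± 25.6 in Nano-patrol+NIR (SD, n = 3 each).

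Against saline, *Fn1* in Nano-patrol+NIR differed by -0.94 on the log2 scale (SE 0.21, 95% interval -1.42 to -0.46), or 1.92-fold lower. Its unadjusted p of 0.00164 was the 64th smallest of 15402, but the edgeR adjusted p was 0.388 and missed the threshold of 0.05. DESeq2 gave the same direction (-0.94) with an adjusted p of 0.0117, and limma-voom with a weight per library gave -1.20 with an adjusted p of 0.00263. Limma-voom without weights gave -0.96 with an adjusted p of 0.375, which also missed the threshold. In rt-PA the difference from saline was -0.49 (SE 0.21, 95% interval -0.97 to -0.02, edgeR adjusted p = 0.279). Between the treatments, Nano-patrol+NIR was lower than rt-PA by a log2 difference of -0.45 (SE 0.21, 95% interval -0.93 to 0.03, edgeR adjusted p = 0.385). In the test of any difference among the 3 groups, the *Fn1* edgeR adjusted p was 0.168 and its unadjusted p 0.00519.

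The proteoglycans did not separate the groups. *Dcn* stood at 22.1, 12.1 and 14.0 CPM in saline 1, 2 and 3, at 17.1, 8.83 and 22.7 CPM in rt-PA 1, 2 and 3, and at 11.04, 8.57 and 49.98 CPM in Nano-patrol+NIR 1, 2 and 3. *Lum* stood at 4.28, 3.93 and 2.56 CPM in saline 1, 2 and 3, at 4.94, 1.68 and 4.80 CPM in rt-PA 1, 2 and 3, and at 2.91, 1.37 and 12.8 CPM in Nano-patrol+NIR 1, 2 and 3. The SD in Nano-patrol+NIR was as large as the mean or larger, at 23.2 ± 23.2 CPM for *Dcn* and 5.69 ± 6.21 CPM for *Lum* (SD, n = 3), against 16.1 ± 5.33 and 3.59 ± 0.908 CPM in saline (SD, n = 3). For both genes, Nano-patrol+NIR held the highest and the lowest library of all 9. Decorin and lumican genes are neighbours on the same chromosome in the RefSeq assembly, with no other coding gene between them. The *Dcn* locus overlaps a long non-coding RNA gene there, and reads shared by that gene and *Dcn* cannot be told apart.

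For *Dcn*, the log2 difference from saline was 0.01 in rt-PA (SE 0.66, 95% interval -1.478 to 1.503, edgeR adjusted p = 0.994). In Nano-patrol+NIR it was 0.53 (SE 0.66, 95% interval -0.96 to 2.02, edgeR adjusted p = 1.00). For *Lum* the differences were 0.09 in rt-PA (SE 0.76, edgeR adjusted p = 0.967) and 0.67 in Nano-patrol+NIR (SE 0.76, 95% interval -1.05 to 2.39, edgeR adjusted p = 1.00). The positive means in Nano-patrol+NIR rested on 1 library. Without Nano-patrol+NIR 3 the log2 differences were -0.72 for *Dcn* and -0.75 for *Lum*.

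**Figure D2:**
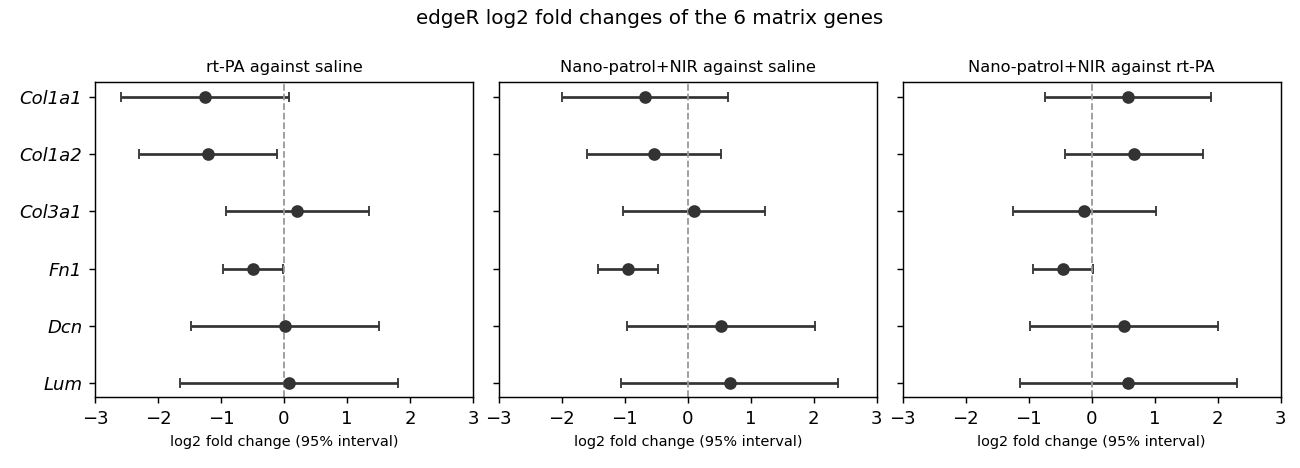
Log2 fold changes of the 6 genes in the 3 comparisons (horizontal axis; points are edgeR estimates, whiskers 95% intervals, the dashed line is no change). The intervals of Fn1 are the narrowest in each panel, and the intervals of Dcn and Lum reach across 0 in all 3.

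Counted over the members, edgeR called 0 of 6 in rt-PA against saline, where it called 0.00649% of all tested genes. At an unadjusted p under 0.05 the count was 2 of 6, *Col1a2* and *Fn1*, beside 17% of all tested genes. DESeq2 also called 0 of 6 (6.9% of all genes called), as did limma-voom (0%). Limma-voom with library weights called 3 of 6, *Col1a1*, *Col1a2* and *Fn1*, all lower, where it called 45.2% of all genes. These 3 genes were also those whose rt-PA libraries all lay below the saline libraries, which held for 10.3% of tested genes. The opposite, every rt-PA library above every saline library, held for 0 members and 9.18% of tested genes. In a fit that left out saline 1, rt-PA 3 and also Nano-patrol+NIR 3, added after seeing the data, edgeR called 1 member, *Fn1*, lower, and 43.8% of all genes. The median log2 difference of the members was -0.24, with 3 of 6 below 0, and that of all tested genes -0.009.

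In Nano-patrol+NIR against saline edgeR also called 0 of 6, beside 0.00649% of all tested genes, and 1 of 6, *Fn1*, had an unadjusted p under 0.05, beside 5.89% of all tested genes. DESeq2 called *Fn1* (0.857% of all genes called), limma-voom called 0 of 6 and limma-voom with library weights called *Fn1* (5.9% of all genes called). *Fn1* was the 1 member whose groups did not overlap, being lower, as were 6.86% of tested genes, and 0 members lay higher, as did 7.62%. Without the 3 libraries that stood apart edgeR called *Fn1* and 3.27% of all genes. The *Col1a1* difference was -0.67 (SE 0.58, edgeR adjusted p = 1.00) and the *Col1a2* difference -0.53 (SE 0.47, edgeR adjusted p = 1.00). Without Nano-patrol+NIR 3 these were -1.29 and -0.98, also with an edgeR adjusted p of 1.00. The median of the members was -0.22 on the log2 scale, with 3 of 6 below 0, against -0.013 for all tested genes.

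In Nano-patrol+NIR against rt-PA edgeR called 0 of 6, beside 0% of all tested genes, and 0 of 6 had an unadjusted p under 0.05, beside 13.8%. DESeq2 called 0 of 6 (4.07% of all genes called), limma-voom called 0 of 6 (0.00649%), and limma-voom with library weights called 1, *Fn1*, lower, where it called 39.1% of all genes. Without the 3 libraries that stood apart edgeR called *Fn1*, lower, and 40.5% of all genes. The groups overlapped for all 6 members, where 8.54% of tested genes lay lower and 8.89% higher without overlap. *Col1a1* differed by 0.58 (SE 0.58, 95% interval -0.74 to 1.90, edgeR adjusted p = 0.698) and *Col1a2* by 0.68 (SE 0.48, 95% interval -0.42 to 1.77, edgeR adjusted p = 0.574). *Col3a1* differed by -0.11 (SE 0.50, edgeR adjusted p = 0.941), *Dcn* by 0.52 (SE 0.66, edgeR adjusted p = 0.767) and *Lum* by 0.58 (SE 0.76, edgeR adjusted p = 0.773). Without Nano-patrol+NIR 3 the differences were -0.055 for *Col1a1*, 0.20 for *Col1a2*, -0.84 for *Col3a1*, -0.75 for *Dcn* and -0.86 for *Lum*. The median difference was 0.55 for the members, with 2 of 6 below 0, and 0.023 for all tested genes. Both treatments were compared with the same saline libraries, so their differences from saline are not independent. In the test of any difference among the groups edgeR called 0 of 6 members, beside 0.00649% of all tested genes, with 1 of 6, *Fn1*, at an unadjusted p under 0.05, beside 14.7%. In that test limma-voom called 0 members, DESeq2 called *Fn1* (7.08% of all genes called), and library weights called *Col1a1* and *Fn1* (49.5%). Without the 3 libraries edgeR called *Fn1* (45.3%).

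In both treated groups, but not in saline, the same library was the lowest for all members. rt-PA 2 was the lowest library of its group for 6 of 6 members, as for 33.6% of tested genes, and Nano-patrol+NIR 2 was the lowest of its group for 6 of 6, as for 26.9%. The highest rt-PA library was rt-PA 1 for 3 members and rt-PA 3 for 3. In saline the order was mixed: saline 1 was lowest for 2 members, saline 2 for 3 and saline 3 for 1. Nano-patrol+NIR 3 was the highest of its group for 6 of 6, as for 41.6% of tested genes, from 1.31 times the mean of the other 2 libraries for *Fn1* to 5.10 times for *Dcn* and 5.99 times for *Lum*. Nano-patrol+NIR 3 is also the library of that group that stood apart across all genes. The part of that library's departure in the members' values was not tested.

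rt-PA 2 was different in this respect, since across all genes it was close to rt-PA 1 (r = 0.984). *Col1a1* was nonetheless 4.004 times lower in rt-PA 2 than in rt-PA 1, and 0.604% of tested genes differed more between these libraries. *Col3a1* was 3.01 times lower (1.46% of genes differed more), *Lum* 2.95 times (1.71%), *Col1a2* 2.12 times (4.85%) and *Dcn* 1.94 times (5.06%). *Fn1* was 1.35 times lower, which 22.2% of genes exceeded, where the median gene differed 1.16-fold. In the alike saline pair, saline 2 and saline 3, *Col1a1* differed 1.10-fold, *Fn1* 1.00-fold, *Col3a1* 1.14-fold and *Dcn* 1.16-fold, near the median gene at 1.11-fold. In that pair the members of lowest counts differed more, *Col1a2* 1.88-fold (3.45% of genes differed more) and *Lum* 1.54-fold (8.07%). In the alike pair of Nano-patrol+NIR 1 and 2, the members differed from 1.29-fold for *Dcn* (22.8% of genes differed more) to 2.13-fold for *Lum* (3.73%), where the median gene differed 1.11-fold.

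**Figure D3:**
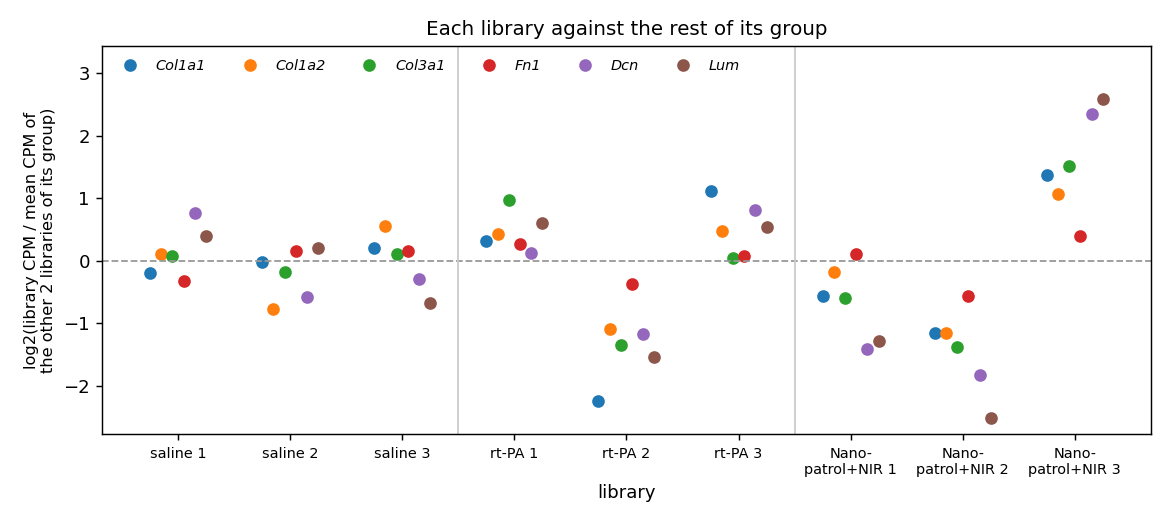
For each library (horizontal axis), the log2 ratio of each gene's CPM to the mean CPM of the other 2 libraries of its group (vertical axis; colours are genes, the dashed line is equality). All 6 genes lie below the line in rt-PA 2 and in Nano-patrol+NIR 2, and all 6 lie above it in Nano-patrol+NIR 3.

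The spread within groups, pooled over the 3 groups on the log2 CPM scale, was an SD of 1.06 for *Lum*, 0.92 for *Dcn*, 0.89 for *Col1a1*, 0.72 for *Col3a1* and 0.58 for *Col1a2*, against a median of 0.36 over all tested genes. *Fn1*, at an SD of 0.26, was below that median. Of all tested genes, 93.6% had a smaller spread than *Lum*, and 30.4% a smaller spread than *Fn1*. The 2 genes outside the members whose levels followed them most closely over the 9 libraries were ENSRNOG00000020369 (r = 0.973 with the mean standardized profile of the members) and ENSRNOG00000032844 (r = 0.956). They were picked for this likeness among all tested genes, so the coefficients are descriptions over 9 libraries that share the same departures. ENSRNOG00000020369 ran from 44.2 CPM in rt-PA 2 to 314 CPM in Nano-patrol+NIR 3, and ENSRNOG00000032844 from 2.89 to 23.2 CPM in the same libraries. Of the members themselves, *Col3a1* followed the mean profile at r = 0.890 and *Fn1* at 0.630. Each member is part of that mean, so its r is partly built in, unlike that of the 2 outside genes.

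Ratios between members within a library do not depend on its total and show which genes moved apart. They are ratios of counts, not divided by transcript length, so they compare libraries and not the levels of both genes. The *Col1a1* to *Col3a1* ratio was 2.33, 2.88 and 2.78 in saline 1, 2 and 3. It was 0.743, 0.558 and 1.47 in rt-PA 1, 2 and 3, and 1.57, 1.77 and 1.49 in Nano-patrol+NIR 1, 2 and 3. The 3 groups did not overlap, with saline highest and rt-PA lowest, although rt-PA 3 (1.47) was close to Nano-patrol+NIR 3 (1.49). The geometric mean was 3.13-fold lower in rt-PA than in saline and 1.65-fold lower in Nano-patrol+NIR than in saline. An exact permutation test (two-sided, 3 libraries per side) gave p = 0.1 for each pair of groups. Groups of this size that do not overlap always give this p, the smallest possible, so it adds nothing to the non-overlap. This ratio was singled out after its values were seen, as 1 of the 15 ratios among 6 members.

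Of the 15 ratios, 1 (6.67%) set saline apart from all 6 treated libraries, close to the 5.66% found over all pairs of tested genes with a count in every library. For rt-PA against saline 7 of 15 (46.7%) did not overlap, beside 20.2% of all gene pairs. In all 7 the numerator was *Col1a1* or *Col1a2*, so these ratios are not independent of each other. For Nano-patrol+NIR against saline 2 of 15 (13.3%) did not overlap, beside 15.7%, and for Nano-patrol+NIR against rt-PA 3 of 15 (20%), beside 18.1%. The *Col1a1* to *Col1a2* ratio overlapped among all groups, with geometric means of 42.0 in saline, 33.6 in rt-PA and 35.9 in Nano-patrol+NIR. The *Dcn* to *Lum* ratio had geometric means of 4.43, 4.42 and 4.53 in the same order, and ran from 3.08 to 6.28 over the 9 libraries. Its range was thus narrower than the range of either gene, since *Dcn* varied 5.83-fold and *Lum* 9.38-fold over the same libraries.

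**Figure D4:**
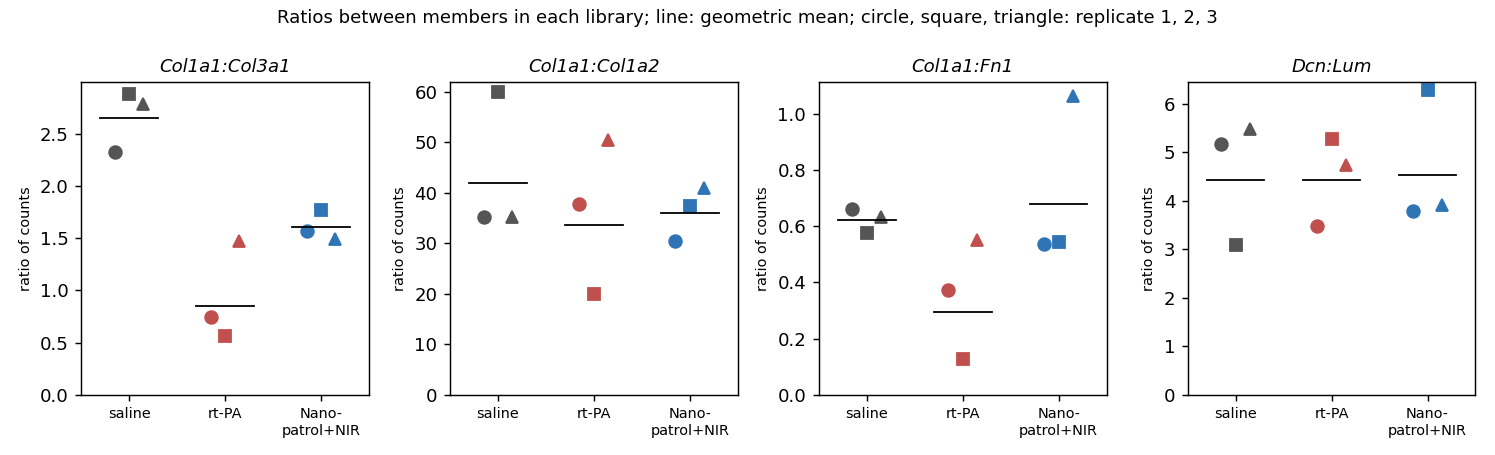
Ratio of the counts of 2 members in each library (vertical axis, linear from 0), by treatment group; circles, squares and triangles are replicates 1, 2 and 3, and lines are geometric means. The Col1a1 to Col3a1 ratio is 2.33 or more in saline and 1.77 or less in the treated libraries, while the Dcn to Lum ratio has nearly the same mean in the 3 groups.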

How the data were processed

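RNA was extracted with Trizol and poly(A)-selected, per the labels' protocols. fastp 0.18.0, Bowtie2 2.2.8, HISAT2 and StringTie 1.3.1 are named, without roles, per the submitters' processing notes. For the counting step, strand setting, genome build and annotation, the information was not given in the sources used here. What the authors deposited were whole-number read counts per Ensembl gene, not normalized, with no unnamed row. Columns were matched to samples through their descriptions and titles. Whether each library came from its own animal is not stated, so p-values reflect the spread between these 9 samples only, and that spread may be technical.

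The main test used edgeR 4.0.16 in R 4.3.3: filterByExpr, TMM scaling, 1 mean per group over all 9 libraries (6 residual degrees of freedom), the robust quasi-likelihood F test, and Benjamini-Hochberg adjustment over all 15402 tested genes, with a threshold of 0.05. Standard errors are the log2 difference divided by the square root of F, and log2 CPM used a prior count of 2. The tests were checked on simulated counts in which no library was made to stand apart, unlike in these data. Alternatives used DESeq2 1.42.0, limma 3.58.1, other scalings and filters, fewer libraries and the replicate block.

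Named genes were the 6 members and the 2 genes most like their mean profile. Members and lists were chosen with earlier results of these data known. The 12 gene lists, on matrix partners, matrix processing, matrix regulators and cell types, were written as symbols. Of 47357 genes in the reference table, 0 carry an Ensembl identifier, and no list was tested. Counting errors are Poisson, and any PCR duplicates, which were not measured, would make them too narrow.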

Additional observations from a re-analysis of the deposited data

How the results depend on the processing

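The number of members called was 0 in each of the 4 tests with edgeR. It stayed 0 under limma-voom, scaling by RLE or by totals alone, without the filter on low counts, and with at least 1 CPM required in 3 libraries. It also stayed 0 in fits of the 6 libraries compared (pairwise tests only) and with each library left out in turn (0 to 0). A threshold of 0.01 on the same edgeR fit could only give 0 again. Without rt-PA 3 the members called were also 0, while 13.5% of all genes were called in rt-PA against saline, 0.223% in Nano-patrol+NIR against saline, 13.1% in Nano-patrol+NIR against rt-PA and 12.1% for any difference. Apart from the fit without rt-PA 3, these settings called at most 0.0701% of all genes in any test. A count of 0 members there is near the share of all genes, and says little about the members. In the tests of rt-PA and of Nano-patrol+NIR against saline, of Nano-patrol+NIR against rt-PA, and of any difference, in this order, DESeq2 called 0, 1, 0 and 1 members, and limma-voom with library weights 3, 1, 1 and 2. In the pairwise tests, DESeq2 called 6.9%, 0.857% and 4.07% of all genes, and library weights 45.2%, 5.9% and 39.1%. A fit that left out saline 1, rt-PA 3 and also Nano-patrol+NIR 3, chosen after seeing the data because they stood apart, called 1, 1, 1 and 1. That member was *Fn1*, lower, at -0.58, -1.18 and -0.61 in the pairwise comparisons, where 43.8%, 3.27% and 40.5% of all genes were called. For any of the 3 groups, the share of all genes called was 7.08% with DESeq2, 49.5% with library weights and 45.3% without these 3 libraries. With the replicate number as a block, 0 members were called in each test. The share of all genes called with the block was 0% in the pairwise tests and 0.00649% for any difference. Same-numbered libraries deviated from their group means with correlations of -0.362 to 0.278, over 0.1 in 5 of 9 pairs, and 2 of 9 libraries were closest to one of their own number, so the numbers were not taken to pair the samples.

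*Col1a1*, *Col1a2* and *Fn1* stayed below saline in both treated groups under all 20 alternatives. These alternatives reuse the same 9 libraries and are not independent. The stricter threshold is the main fit again, and some fits only drop a library of the group not compared. Leaving out each library gave -1.287 to -0.374 for *Col1a1* and -0.983 to -0.238 for *Col1a2* in Nano-patrol+NIR, and -1.698 to -0.814 and -1.405 to -0.926 in rt-PA. Directions changed in some settings for *Col3a1*, *Dcn* and *Lum*, and for *Col1a1* between the treatments. For rt-PA against saline the log2 differences of *Dcn* and *Lum* were -0.042 and -0.027 with limma-voom and -0.153 and -0.196 with the replicate block. For Nano-patrol+NIR against saline *Col3a1* was at -0.108 with limma-voom and -0.088 with the replicate block. With library weights *Col3a1*, *Dcn* and *Lum* were at -0.570, -0.341 and -0.463, and without the 3 libraries at -0.567, -0.406 and -0.586. For Nano-patrol+NIR against rt-PA *Dcn* and *Lum* were at -0.479 and -0.826 with library weights, and at -0.446 and -0.667 without the 3 libraries. Leaving out each library in turn gave, for rt-PA against saline, -0.175 to 0.539 for *Col3a1*, -0.285 to 0.344 for *Dcn* and -0.131 to 0.441 for *Lum*. For Nano-patrol+NIR against saline it gave -0.601 to 0.435, -0.717 to 0.929 and -0.746 to 1.138 in the same order. Between Nano-patrol+NIR and rt-PA it gave -0.842 to 0.273, -0.750 to 0.898 and -0.856 to 1.030, and -0.055 to 1.027 for *Col1a1*. For these reversals the cause was not tested. No scaling moved the median of all genes by over 0.1. Low counts limit *Col1a2*, at 11 to 61 per library, and *Lum*, at 18 to 184.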
